A study of Mus musculus with 12 samples.

Results

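Filip1l, Cmss1, Jarid2, Rn18s-rs5, Lars2, Cdk8 and Camk1d are 7 mouse genes at which reads of ribosomal RNA can be placed, and their m1A peaks were examined in 6 peak lists from the caudate putamen, the dorsal striatum. The members were chosen by their calls in these same lists, in which Filip1l, Cmss1, Jarid2 and Rn18s-rs5 had stood out among regions called in control tissue alone, and by their reputation for taking up ribosomal reads. Calls by genotype and enrichment are therefore given as descriptions, without tests. A peak was a member when its summit lay in the RefSeq span of 1 of these genes on GRCm38. The rule found 38 peaks, which merged into 20 regions where they shared at least 1 bp, of 13572 regions in all 6 lists. All 7 genes had at least 1 peak, a count set in part by that choice. The share of all annotated genes with a peak was not counted.

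m1A is adenosine methylated on the ring position that pairs with uridine, and an antibody against it was used to pull down fragmented RNA. All mice were adult males with loxP sites in both copies of Tet1 (Tet1 fl/fl), and all received an AAV that carries EGFP into the caudate putamen. Controls (labelled Tet1 fl/fl) received AAV-EGFP and knockouts (KO, labelled Tet1 delta/delta) AAV-Cre-EGFP, and the injected region was collected 2 weeks later. Cells of that region which took up no virus keep Tet1, and the promoter that drives Cre is not given in the sources used here. Each genotype had 3 pull-down libraries, each with its own input. The labels do not tell whether the 3 libraries are different mice, so the spread between them may be technical.

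Ribosomal RNA is transcribed by RNA polymerase I as a long precursor that is cut into the 18S, 5.8S and 28S RNAs of the ribosome. Its repeated genes are largely missing from the assembled mouse chromosomes, so ribosomal reads can be aligned to the few stretches elsewhere that resemble them, such as the pseudogene Rn18s-rs5 or short stretches inside unrelated genes. The large ribosomal RNA is itself a known carrier of m1A, which the methyltransferase Rrp8 places in the cytosolic ribosome and Trmt61b in the mitochondrial one. The protocol removed ribosomal RNA after the pull-down, before library preparation. The sequence under the peaks was not used here, so whether each site resembles ribosomal RNA was not tested.

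The caller used 459332 to 1097292 pull-down tags in the controls and 1235247 to 2508102 in the KO libraries, so each KO list came from more tags than each control list. Control 1 was called without removing duplicate tags, and the other 5 lists with at most 1 tag per position. In control 1, 72.4% of all peaks were exactly as wide as the modelled fragment, against 11.8% to 16.0% in the other lists. KO 2 had the most tags and the longest list (6947 peaks). Of 12 markers of striatal medium spiny neurons, 10 had a peak in some library, from 4 per library in control 1 and KO 1 to 9 in control 2 and KO 2. The exceptions, Drd1 and Tac1, are defining markers of the direct-pathway neurons. No list called a peak in Tet1, so its deletion cannot be checked from them. Among 4 microglia markers, Laptm5 was called in all 3 controls and no KO library (10.3 to 16.7-fold), the pattern of the member sites below, Cx3cr1 in KO 2 alone, and Csf1r and P2ry12 in no list. Of 5 astrocyte markers 3 had a peak, and of 5 oligodendrocyte markers 4, none in all libraries of 1 genotype alone. The share of all annotated genes with a peak was not counted, so these marker counts have no scale beside them. The part of microglial RNA in the member calls was not tested.

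Outside Camk1d, 7 of 10 regions were called in controls alone, beside 27.5% of all regions. Genes among these were chosen by their control calls, so the split was set in part by that choice. Of the 20 regions, 5 were called in all 3 controls and in no KO library, and they lay in Filip1l with the overlapping Cmss1, in Jarid2, in Rn18s-rs5, in Lars2 and in Cdk8. Across the series 0.796% of regions had that pattern, a share that is given for scale only, since the members were chosen with it in view. Camk1d held the 1 region that every KO list called and none of the control lists, a pattern that 1.41% of all regions had. None of the 20 was called in all 6 libraries, against 2.96% of all regions. In total, 10 of the 20 were called in controls alone (27.5% of all regions), 8 in KO libraries alone (51.7%) and 2 in both genotypes (20.8%). A single list held 11 of the 20 (69.0% of all regions).

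**Figure D1:**
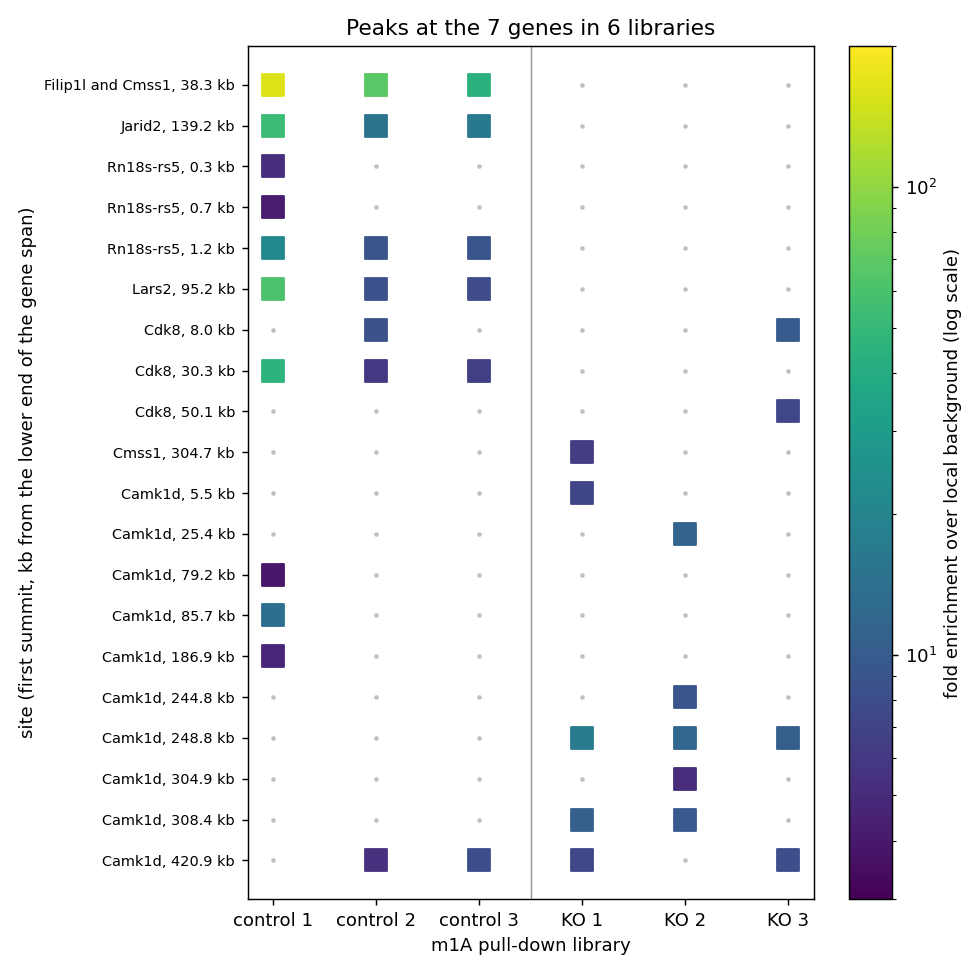
Peaks at the 7 genes (rows, 1 per region, labelled by the distance of the first summit from the lower end of the gene span in kb) in each library (columns). A square marks a called peak and its colour the authors' fold enrichment on a log scale, and a dot marks no call. The 5 sites filled in all 3 control columns are empty in all 3 KO columns, and the row of Camk1d at 248.8 kb shows the opposite.

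Controls 1, 2 and 3 had 10, 7 and 6 peaks at these genes, and KO 1, 2 and 3 had 5 each. The means were 7.67 ± 2.08 (SD, n = 3) and 5 ± 0. These peaks, Camk1d included, made up 0.200% to 0.315% of a control list and 0.0720% to 0.164% of a KO list. Without Camk1d, the member with the most KO calls, the numbers were 7, 6 and 5 in the controls and 1, 0 and 2 in the KO libraries, and the choice of the other genes by their control calls bears on this split. Where a list has no peak, the caller did not reach its threshold with those tags and that input, and this does not show a lack of m1A.

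The site shared by Filip1l and Cmss1 was among the most enriched of each control list. Filip1l encodes a filamin-interacting protein, and Cmss1 a homologue of a yeast protein of the small ribosomal subunit. The genes run in opposite directions over the same stretch of chromosome 16, and the region from 57391251 to 57391715 lies inside both spans, so it counts for both. Its fold enrichment over the local background, the authors' value for each peak, was 162 in control 1, 66.8 in control 2 and 43.9 in control 3. Within their lists these peaks ranked 3 of 3179, 2 of 3444 and 4 of 3004 by fold enrichment, and 9, 5 and 9 by −log10 q (543, 170 and 121). The pileup, the number of tags over the summit, was 243, 83 and 80. None of the 3 KO lists held a peak there. No other peak of the 7 genes was among the 10 most enriched of any list.

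The 3 summits at that site lay within 10 bp of each other, 38.3 kb downstream of the first base of Filip1l and 215 kb downstream of the start of Cmss1. The RefSeq table used here holds no exons, so whether the summits are exonic or intronic was not analysed here. Among the 108 control-only regions of the series, the site had the highest median fold enrichment (66.8), and the highest of the 103 outside the 7 genes was 21.7. Filip1l and Cmss1 were chosen because they had stood out among such regions, so this rank reflects that choice. The 3 other regions in an annotated gene with the same calls and the highest median fold enrichment over the 3 controls lay in Gm19951 (20.2), Dnah7b, which encodes a dynein heavy chain (19.8), and Gm36876 (18.5). In Gm19951 the fold enrichment was 257 in control 1, 19.1 in control 2 and 20.2 in control 3, with control 1 again the highest.

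Cmss1 also had a peak of another kind, at its own start. It was called in KO 1 alone, on chromosome 16 from 57606663 to 57606834, with a pileup of 6, a fold enrichment of 6.32 and rank 2358 of 3782. Its summit lay 131 bp downstream of the RefSeq start site, and its upper end reached into the promoter window. Promoter windows were held for 6 of the 7 genes, not for Rn18s-rs5, and this was the only window that a peak touched. Its RefSeq sequence (GRCm38.p6, chr16:57606818-57607117, minus strand, 5′ to 3′) is shown, and the capitals mark the 17 bases under the peak.
Cmss1 promoter: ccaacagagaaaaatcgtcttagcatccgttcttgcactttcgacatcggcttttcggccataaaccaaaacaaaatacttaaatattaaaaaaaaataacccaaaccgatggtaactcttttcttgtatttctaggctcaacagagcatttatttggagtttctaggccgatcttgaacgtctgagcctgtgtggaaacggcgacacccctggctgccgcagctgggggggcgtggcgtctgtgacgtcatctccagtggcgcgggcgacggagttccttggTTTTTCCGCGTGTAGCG
The capitals are the last bases of the window, after the start site. The window holds 21 CG pairs, and 48.7% of it is G or C. The start site is 215 kb from the site that Cmss1 shares with Filip1l.

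Jarid2, which encodes a partner of the Polycomb repressive complex, had a single region, on chromosome 13 from 44869515 to 44870120. Each control list had it, and the KO lists did not. The fold enrichment was 52.4 in control 1, 15.1 in control 2 and 16.4 in control 3, from pileups of 59, 18 and 21. By fold enrichment these ranked 16, 207 and 132 in their lists, within the first 6.01% of each. The summits agreed within 9 bp and lay 139 kb into the gene. Jarid2 ranked 8 of 108 among the control-only regions by median fold enrichment, as the second of the 5 members. It too was chosen for standing out among these regions, so its rank is no separate result.

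Rn18s-rs5, a pseudogene related to 18S ribosomal RNA that also goes by Gm42418, spans 1849 bp of chromosome 17. Its region from 39847226 to 39847896 was a peak in each control list and in none of the KO lists. Fold enrichments were 21.3, 9.0 and 9.19 in controls 1, 2 and 3, from pileups of 174, 39 and 34, and the ranks were 64, 988 and 778. In controls 2 and 3 it therefore lay at 28.7% and 25.9% of the list, well below Filip1l and Jarid2. The summits, within 22 bp, lay 1188 to 1210 bp from the lower end of the gene. Control 1 had 2 further peaks in Rn18s-rs5 that no other list called, of 5.26 and 4.14-fold enrichment.

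Rn18s-rs5 had a higher background than the other control-only sites of the members. The caller's ratio is the pileup plus 1 over the local background plus 1, so the background it set from the input can be recovered for each peak. Each input had more tags than its pull-down (6300237 against 459332 in control 1) and was scaled down to it. The background is therefore given in scaled tags, and it is not a count of input tags. With that background the caller's own p-value was recovered within 0.05 on the −log10 scale for 100% of the 23413 peaks. At the shared Rn18s-rs5 site the background was 7.21, 3.44 and 2.81 tags in controls 1, 2 and 3, beside list medians of 0.0756, 1.36 and 1.26. At Filip1l and Cmss1 it was 0.510, 0.257 and 0.845 tags, and at Jarid2 0.146, 0.257 and 0.338. Each of these values is below 1 scaled tag, and in control 2 both sites had the same 0.257. The fold enrichments at these sites therefore rest on a low scaled background. The scaling differs between libraries. At Filip1l and Cmss1 the background was below the list median in controls 2 and 3. In control 1, where their fold enrichment was highest, it was above the median (0.510 against 0.0756). Rn18s-rs5 was above the median in all 3. The region near the start of Camk1d, which is not control-only, had 7.44 and 3.04 tags in controls 2 and 3, more than Rn18s-rs5.

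**Figure D2:**
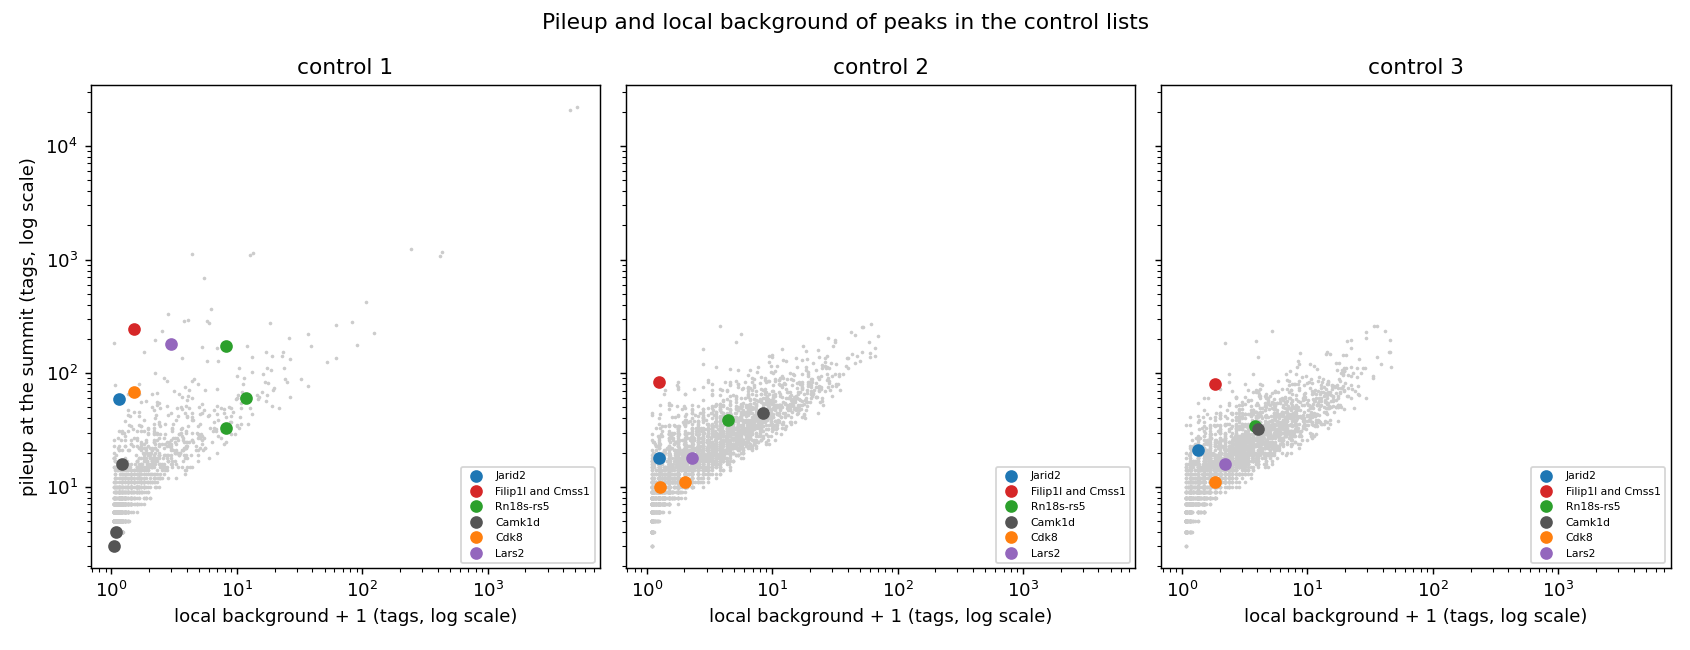
Pileup at the summit against the local background plus 1, both in tags on log scales, for each peak of the 3 control lists (grey) and for the peaks at the 7 genes (coloured). The background is the input scaled to the tag number of the pull-down. In all 3 panels the Filip1l and Cmss1 point lies at the upper edge of the cloud (pileups of 243, 83 and 80), and in controls 2 and 3 the other genes lie within it.

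The peaks of Rn18s-rs5 continued below the gene, in a stretch that was examined after its peaks had been seen. In the gene and the 5 kb before its lower end, controls 1, 2 and 3 had 4, 5 and 6 peaks, 15 in all, and the KO libraries had 0. These peaks formed 6 regions, 2 of them called in all 3 controls and 4 in both control 2 and control 3. For scale, 27.5% of all regions were called in controls alone, and 0.796% in all 3 controls and no KO library. Neighbouring peaks of the same library are not independent calls. The 3 regions before the gene lay in no annotated gene of the RefSeq table, between positions -2539 and -7 relative to its lower end, in bp. Their peaks had fold enrichments from 1.81 to 7.54, over backgrounds of 5.63 to 123 tags. In control 1 the peak with its summit at -230 bp had a pileup of 224 over a background of 123.

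**Figure D3:**
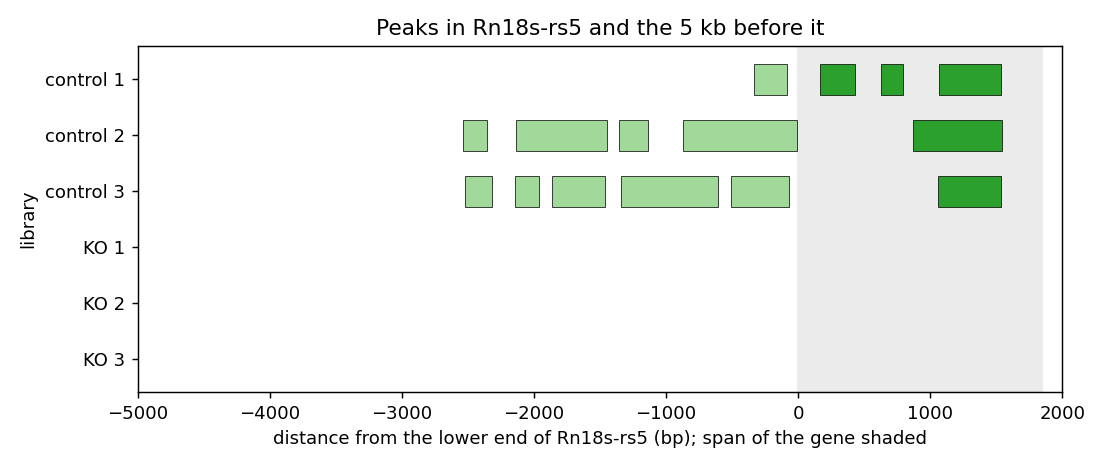
Extent of each peak in Rn18s-rs5 (shaded span, dark green) and in the 5 kb before it (light green) by library, in bp from the lower end of the gene. The 15 peaks are in the 3 control rows, and the KO rows are empty.

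Lars2, which encodes the mitochondrial leucyl-tRNA synthetase, had a single region, on chromosome 9 from 123461827 to 123462291. The 3 control lists had it, and the KO lists lacked it. The fold enrichment was 60.6 in control 1, and 8.32 and 7.79 in controls 2 and 3. Pileups were 179, 18 and 16. By fold enrichment the site ranked 14 of 3179 in control 1 but 1187 and 1214 in the other controls, at 34.5% and 40.4% of those lists. Lars2 runs upwards on the chromosome, and the summits lay 525 to 554 bp before the last base of its span, 95.2 kb downstream of its start.

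Cdk8, the kinase of the Mediator complex, had 3 regions. The one found in each control list and absent from the KO lists lay on chromosome 5 from 146260906 to 146261292, 30.3 kb into the gene. Its fold enrichment was 45.7 in control 1, 5.92 in control 2 and 6.50 in control 3, from pileups of 68, 11 and 11. The ranks were 23, 2343 and 1830, so the site was past the middle of the lists of controls 2 and 3. With each list shortened to its 3004 best peaks by −log10 q, this was the member region that no longer counted as control-only, which left 4. Its summits were also the farthest apart, by 89 bp. A second region, 7.95 kb into the gene, was called in control 2 (8.64-fold) and KO 3 (9.75-fold), and the third in KO 3 alone (7.22-fold).

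Control 1 gave the highest values at all 5 shared sites. Its pileup was 2.93 and 3.04 times that of controls 2 and 3 at Filip1l and Cmss1, 3.28 and 2.81 times at Jarid2, 4.46 and 5.12 times at Rn18s-rs5, 6.18 times both at Cdk8, and 9.94 and 11.2 times at Lars2. At the other 103 control-only regions the median ratio was 0.579 to control 2 and 0.679 to control 3. Both ratios were at least 2.81, the lowest of the members, in 18 of the 103. Control 1 had the fewest tags and kept all duplicates, and the part of duplicates in these ratios was not tested. All 5 sites were also called in controls 2 and 3, which kept 1 tag per position, as their choice as control-only regions requires. Without control 1 they stay control-only by construction, and 3.61% of all regions then count as such.

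**Figure D4:**
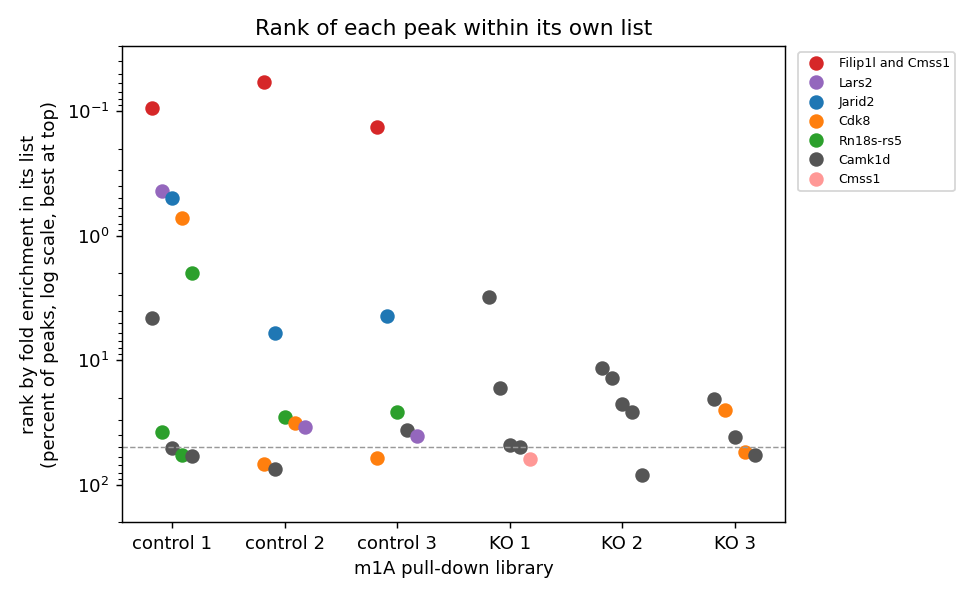
Rank by fold enrichment of each peak at the 7 genes within its own list, as a percent of the list on a log scale with the most enriched at the top, by library. The dashed line marks the middle of the list. Filip1l and Cmss1 are within the first 0.133% of each control list, while in controls 2 and 3 Lars2 and the shared Cdk8 site rank between 34.5% and 68.0%.

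With at most 1 tag per position and strand, a pileup cannot pass 2 times the modelled fragment length. In controls 2 and 3 the Filip1l and Cmss1 peak reached 23.4% and 23.5% of that ceiling, Rn18s-rs5 11.0% and 10.0%, Jarid2 5.08% and 6.18%, Lars2 5.08% and 4.71%, and Cdk8 3.11% and 3.24%. Rn7s1 and Rn7s2, the RNA component of the signal recognition particle, reached 72.6% to 82.4% in the 5 lists with this limit. Tags stacked on few positions lose duplicates well below this ceiling, and how many were lost at the member sites was not tested.

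The KO lists did call weak peaks. At local backgrounds at least as high as that of each control at the Filip1l and Cmss1 site, they held peaks with pileups down to 5 to 8, where the controls had 80 or more. At the backgrounds of Rn18s-rs5 the lowest KO pileups were 12 to 25, against control pileups of 34 to 174. At those of Cdk8 in controls 2 and 3 they were 7 to 9, close to the control pileup of 11. The KO background at the sites themselves is not recorded where no peak was called, so how many KO tags lay there is unknown. The KO lists used more tags, so their background at the sites may have been higher than in the controls. The lowest KO pileups given here therefore do not show what a call at the sites needed.

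Camk1d, a calcium/calmodulin-dependent kinase, had peaks in all 6 libraries, 3, 1 and 1 in the controls and 4, 5 and 3 in the KO libraries, which formed 10 regions along its 421 kb on chromosome 2. Of these, 3 were called in controls alone, each in control 1 only, 6 in KO libraries alone and 1 in both genotypes. A single list called 7 of the 10. The shares in controls alone (30%), in KO libraries alone (60%) and in a single list (70%) were near those of all regions (27.5%, 51.7% and 69.0%). The share in both genotypes, from 1 region, was 10%, against 20.8% of all regions.

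The region that every KO library called, and none of the controls, lay from 5541776 to 5542563, 172 kb from the gene's 5′ end. Its fold enrichment was 17.3 in KO 1, 12.0 in KO 2 and 10.4 at the stronger of the 2 peaks of KO 3. The main summits of the 3 libraries lay between 5542424 and 5542441. Pileups there were 34, 57 and 37 over backgrounds of 1.03, 3.85 and 2.65 tags, and the ranks were 118 of 3782, 810 of 6947 and 625 of 3057. These ranks were lower in their lists than that of Filip1l and Cmss1 in the controls. Another region, from 5601769 to 5601997, was called in KO 1 (10.5-fold) and KO 2 (9.57-fold), with summits 1 bp apart.

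Near its start Camk1d was called in both genotypes. The region from 5714263 to 5714458 had fold enrichments of 5.45 in control 2, 8.16 in control 3, 7.23 in KO 1 and 8.15 in KO 3, and the genotypes overlapped. Pileups were 45, 32, 47 and 53. Its summits lay 393 to 433 bp downstream of the nearer of its 2 RefSeq start sites. The highest fold enrichment of Camk1d in a control was 13.9, at a summit 336 kb from the 5′ end that control 1 alone called (pileup 16).

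**Figure D5:**
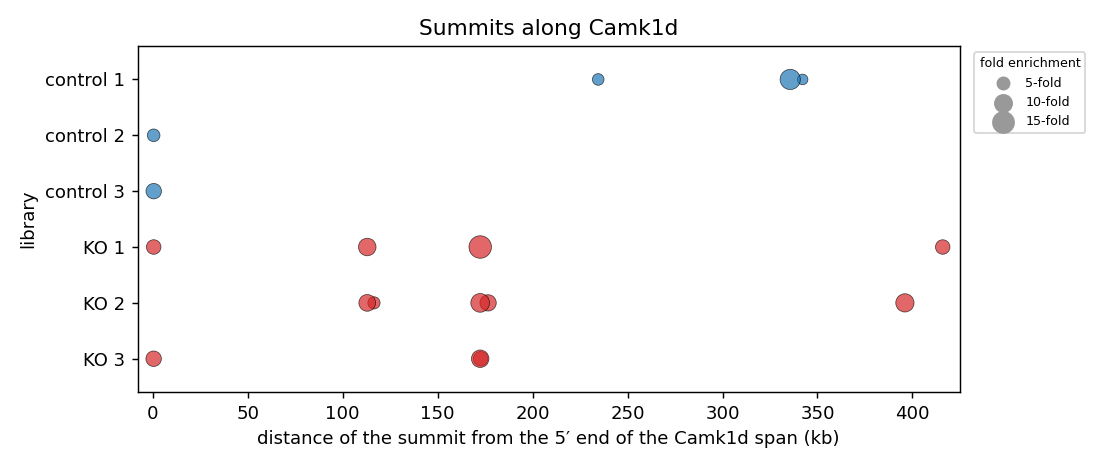
Summits along Camk1d in each library, in kb from the 5′ end of its span, with controls in blue and KO libraries in red and the area of each point proportional to fold enrichment. Points near 0 kb occur in both genotypes, and those at 172 kb in the 3 KO libraries alone.

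The 5 shared control-only sites had a median width of 465 bp after merging, and the other 103 control-only regions 338 bp. Their summits spread over 22 bp at the median (9 to 89), against 43 bp for the others, whose quartiles were 17.5 and 94 bp. Among these 5 sites, Jarid2 and the Filip1l and Cmss1 site had the closest summits, and Cdk8 the most scattered.

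The other ribosomal RNA loci that could be looked up carried few peaks. Of 13 other loci listed as collectors of nuclear ribosomal reads, 5 were in the RefSeq table. The rest, Rn45s and Rn18s among them, had no entry, so no call could be assigned to them. Of the 5, only Gm15564 had a peak, in control 1 (6.72-fold, pileup 6) and control 2 (5.44-fold, pileup 5). The ribosomal RNA genes Rn5s and Rn28s1, Mir6236 and AY036118 had none in any of the 6 lists. The mitochondrial ribosomal RNA genes mt-Rnr1 and mt-Rnr2 had none either. Other abundant structured RNAs, which share high read numbers with ribosomal RNA, were called in both genotypes: Rn7s1, Rn7s2, Rn7sk and Malat1 in all 6 lists and Rpph1, the RNA of RNase P, in 5. Rmrp, the RNA of RNase MRP, was called in controls 2 and 3 alone (3.90 and 5.71-fold).

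Of 28 genes for the synthesis, processing and methylation of ribosomal RNA, 11 had a peak. The share of all annotated genes with a peak was not counted, so this number has no scale beside it. Ncl, which encodes nucleolin, and Taf1a, a subunit of the polymerase I selectivity factor, were called in all 6 lists, at 4.29 to 11.7-fold and 10.2 to 21.7-fold enrichment. Fbl, the methyltransferase fibrillarin, was called in the 3 KO libraries and 1 control. Another 3 genes were called in controls alone, among them Ubtf, the upstream binding factor of polymerase I, in 2 controls (7.97 and 8.59-fold), and 5 in KO libraries alone, each in 1 library. Across the series, too, more regions were called in KO libraries alone (51.7%) than in controls alone (27.5%). No gene of this list was called in all libraries of 1 genotype and none of the other. Rrp8 and Trmt61b, the m1A methyltransferases of ribosomal RNA, had no peak in any list.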

How the data were processed

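RNA from 3 control and 3 KO pull-downs was compared through 6 peak lists; the 6 inputs entered only through peak calling. Per the submitters' processing notes, cutadapt 2.8, HISAT2 2.1.0, MACS2 2.2.6 and GRCm38 were used. Per the file headers, peaks were called in each pull-down with the matching input as background and a q-value cutoff of 0.01, with duplicates kept in control 1 only. The deposited columns are the pileup, a signal (tag coverage), the −log10 of the p-value and q-value, and the fold enrichment, a ratio to the local background.

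From these, regions were merged at 1 bp of overlap, placed by summit in RefSeq spans (GRCm38.p6, 49997 genes, no exons), ranked within lists and named by rule: all 7 members, and the 3 regions in genes most like the leading one. RefSeq promoter windows (250 bases before to 50 after a start site) were held for 6 of the 7 genes. Members and lists were chosen with earlier results of these data known, so no test was run. The depth of a list is its tag number, and a list gives no count outside its peaks. The merging and pattern counts were tested on simulated data. Simulated regions lay far apart and the peaks of each always overlapped, so neighbouring or chained peaks were not tried. Python 3.11.15, pandas 2.3.3 and scipy 1.17.1 were used.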

Additional observations from a re-analysis of the deposited data

How the results depend on the processing

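Of the 6 alternatives that keep all libraries, 5 left the same 5 control-only regions, and lists of equal length left 4 (without Cdk8). Leaving out libraries cannot remove a control-only region, so those settings do not bear on its stability. The same holds for the 1 KO-only region, in Camk1d; over the leave-one-out settings that count ran from 1 to 2, since a second Camk1d region counted without KO 3. Leaving out 1 library gave 15 to 20 regions, 0 called in all libraries, and means of 6.5 to 8.5 peaks per control and 5 to 5 per KO library. The KO mean of 5, whose SD was 0, moved to 4.67 where the −log10 q had to reach 5, and to 4.33 in lists of equal length. Without control 1 and KO 2, a setting chosen after seeing the data, 12 regions were left, and 1, at the start of Camk1d, was called in all 4 libraries, while 8.12% of all regions counted as control-only. Ranked by pileup, none of the 10 first peaks of a control list lay at these genes (mean 0), and the 30 first by fold enrichment held 2 on average. No paired analysis was possible because the results come from no test. Depth was higher in KO, and input coverage at uncalled sites is unknown, so absent calls limit every comparison here.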
